A study of Mus musculus with 22 samples.

Results

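The genes described here make, sense, move and export cholesterol, and they were followed in the striatum and the white adipose tissue (WAT) of mice given thyroid hormone (TH). A list of 33 genes was taken, and a gene was kept in a tissue if its mean normalised count over all libraries of that tissue was above 10. In WAT, 33 of 33 listed genes were kept, out of 17928 genes tested. In the striatum 32 were kept, out of 15827, because the mean of Nr1h3, which encodes the liver X receptor alpha, was below 10. A normalised count is a raw read count divided by the effective size of its library and multiplied by the mean effective size in that tissue, so values of one gene can be compared between libraries of one tissue.

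RNA was sequenced from 22 libraries of wild-type C57BL/6J mice that were 8 weeks old and labelled male. Hypothyroid controls had received propylthiouracil (PTU), a drug that blocks the thyroid gland, for 2 weeks, and gave 2 striatum and 4 WAT libraries. TH was given before the others, which were collected 12 h (n = 4) and 24 h (n = 4) later for the striatum and 6 h (n = 4) and 24 h (n = 4) later for WAT. Labels of the TH libraries name only the hormone and the time, while the study describes a single injection of both hormone forms and lists PTU feeding for WAT but none for the striatum, so whether striatum TH mice were hypothyroid first is not given.

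Cholesterol is built from acetyl units through mevalonate, squalene and lanosterol, and the enzymes of this route are switched on together by SREBP2, the product of Srebf2. When the endoplasmic reticulum is rich in sterol, the INSIG proteins hold SREBP2 and its escort SCAP back, and the liver X receptors in turn raise the exporters ABCA1 and ABCG1 and the ubiquitin ligase MYLIP, which marks lipoprotein receptors for degradation. Brain cells make nearly all of their own cholesterol, much of it for myelin, whereas adipocytes store cholesterol in their lipid droplet and membranes and hand it to lipoproteins. Thyroid hormone is known as a regulator of cholesterol handling, above all in the liver.

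Depth, in units of 1000000 counts, ranged from 8.04 to 10.1 in the striatum and from 17.3 to 26.9 in WAT. In 6 of the 10 striatum libraries the female transcript Xist was abundant and Y-linked genes were near 0, against the label; these were PTU replicate 6, TH12h replicate 1 and all 4 TH24h libraries, so the share of such libraries differed between the groups. Summed markers of cortical excitatory neurons ran from 4309 to 8173 normalised counts in the PTU striatum, from 10323 to 16167 at 12 h and from 6058 to 25676 at 24 h. One library, striatum TH24h replicate 2, had 3427 normalised counts for 10 markers of striatal projection neurons, below the 24458 to 64014 of the other 9. In WAT, summed skeletal muscle markers ran from 1026 to 549586 normalised counts, a wide range within every group, and 6 markers of stratified epithelium reached 3936 in TH6h replicate 3. All 8 adipocyte markers had a mean above 10 normalised counts in every WAT group. In bulk tissue, fewer cells of a type and less RNA per cell cannot be told apart.

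Levels of different genes were compared as counts per kilobase of exon and per 1000000 counts of the library. In the PTU striatum the highest was Hmgcs1, the synthase that makes the mevalonate precursor, at 47.7 ± 4.67 (SD, n = 2), followed by the sterol demethylating oxidase Msmo1 at 25.3 ± 1.15. Srebf2 was at 18.5 there, rank 5 of 33, and Abca1 at 9.68, rank 12. In the PTU WAT the highest was Insig1 at 115 and the next was Npc2, which carries cholesterol inside lysosomes, at 62.3. Hmgcs1 came next in WAT at 51.0, and after it Acat2, the cytosolic thiolase that joins acetyl units, at 42.0. By this measure the storage enzyme Soat1, which esterifies cholesterol, was the lowest of the 33 in the PTU WAT at 0.939. That rank depends on its exon length of 9791 bases. In normalised counts, not divided by length, Hsd17b7 was lower there, at 180 against 203 for Soat1. Idi1 and Fdps, which make and join isoprenoid units, were at 14.6 and 17.8 in WAT but at 0.189 and 0.435 in the striatum. The tables were counted separately after a described removal of alignments of low mapping quality, and the part of reads with several matches in the low striatum values of Idi1 and Fdps was not tested.

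Promoter windows from RefSeq (GRCm38.p6, from 250 bases before to 50 after the start of the gene) matched 27 of the 33 genes. On both strands, the sterol regulatory element bound by SREBP, searched as TCACNCCAC, was found in 1 of the 27, Hmgcs1, against 1.44% of 27025 genes in the table. The CCAAT box bound by NF-Y, a factor that works beside SREBP, was found in 22 of 27 against 41.1% of all genes. The nuclear receptor half-site AGGTCA was in 3 of 27 (Hmgcs1, Dhcr7 and Insig1) against 18.1%. The direct repeat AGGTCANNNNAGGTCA, of the kind bound by thyroid hormone and liver X receptors, holds that half-site in both arms and was in 0 of 27 against 0.0148%. A gene with several windows was counted if any of them held the letters. A match to these letters is a description of the window and not evidence of a bound site. Genes with a match were ordered by the number of comparisons in which they were called and then by their smallest adjusted p, and for the first 4 the 150 bases before the RefSeq start are printed 5′ to 3′ on the strand of the gene, with CCAAT or its reverse complement ATTGG in capitals as examples of promoters of called genes. Pmvk and Npc2 were called in 2 comparisons each, and Mylip and Sc5d in 1, like 5 other genes. The window of Abca1 held no match to any of the searched letters.
Pmvk (chr3:89454391-89454540, plus strand): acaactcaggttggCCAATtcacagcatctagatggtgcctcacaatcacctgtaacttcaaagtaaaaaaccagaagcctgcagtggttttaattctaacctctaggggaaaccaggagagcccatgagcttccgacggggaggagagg
Npc2 (chr12:84773113-84773262, minus strand): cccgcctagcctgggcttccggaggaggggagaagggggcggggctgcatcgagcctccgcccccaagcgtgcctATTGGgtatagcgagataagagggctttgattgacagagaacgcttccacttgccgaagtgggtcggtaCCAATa
Mylip (chr13:45389592-45389741, plus strand): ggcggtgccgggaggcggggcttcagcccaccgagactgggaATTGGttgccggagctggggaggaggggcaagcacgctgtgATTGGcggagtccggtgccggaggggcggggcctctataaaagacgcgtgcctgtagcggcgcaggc
Sc5d (chr9:42264301-42264450, minus strand): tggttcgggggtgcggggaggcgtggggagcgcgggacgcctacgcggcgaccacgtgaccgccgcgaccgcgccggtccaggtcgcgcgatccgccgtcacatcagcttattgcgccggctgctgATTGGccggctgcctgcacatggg
The single CCAAT of Pmvk began 136 bases before the RefSeq start, in the first of its windows; another window of Pmvk held no match. The ATTGG of Sc5d began 24 bases before its RefSeq start. Npc2 and Mylip each held 2 matches in the stretch shown. For Sc5d and Npc2 the RefSeq start differs from the end of the GENCODE gene given with their values below, and part of the Npc2 stretch, with its second match, lies inside that gene model.

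In WAT the clearest changes against PTU were those of single genes, Abca1 at 24 h and Npc1 at both times. Abca1, the membrane pump that loads cholesterol onto lipoproteins, was near its PTU level of 3062 ± 352 normalised counts (SD, n = 4) at 6 h and fell to 1518 ± 179.8 at 24 h. Npc1, the membrane protein that lets cholesterol out of late endosomes, was higher at both times, while its soluble partner Npc2 was lower at both, with calls that most fits leaving out a library did not keep. Most of the synthesis enzymes did not pass the test. A gene was called when its adjusted p was under 0.05 in edgeR's quasi-likelihood test, with Benjamini-Hochberg adjustment over all genes tested in that tissue. At 6 h against PTU, 1 of 33 genes was called higher, beside 4.18% of all genes, and 2 lower, beside 3.05%. At 24 h against PTU, 2 were called higher, beside 7.45% of all genes, and 3 lower, beside 9.62%. Between 24 h and 6 h, 3 were called higher, beside 3.07%, and 2 lower, beside 4.35%. Against PTU the counts are near what those background shares give, and the list was not tested against other genes. The median log2 change of the 33 genes was -0.099 at 6 h, 0.014 at 24 h and -0.014 between the times, against medians over all genes of -0.030, -0.0020 and 0.0081. The PTU libraries are shared by the first 2 comparisons and the 6 h libraries by the first and last.

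**Figure D1:**
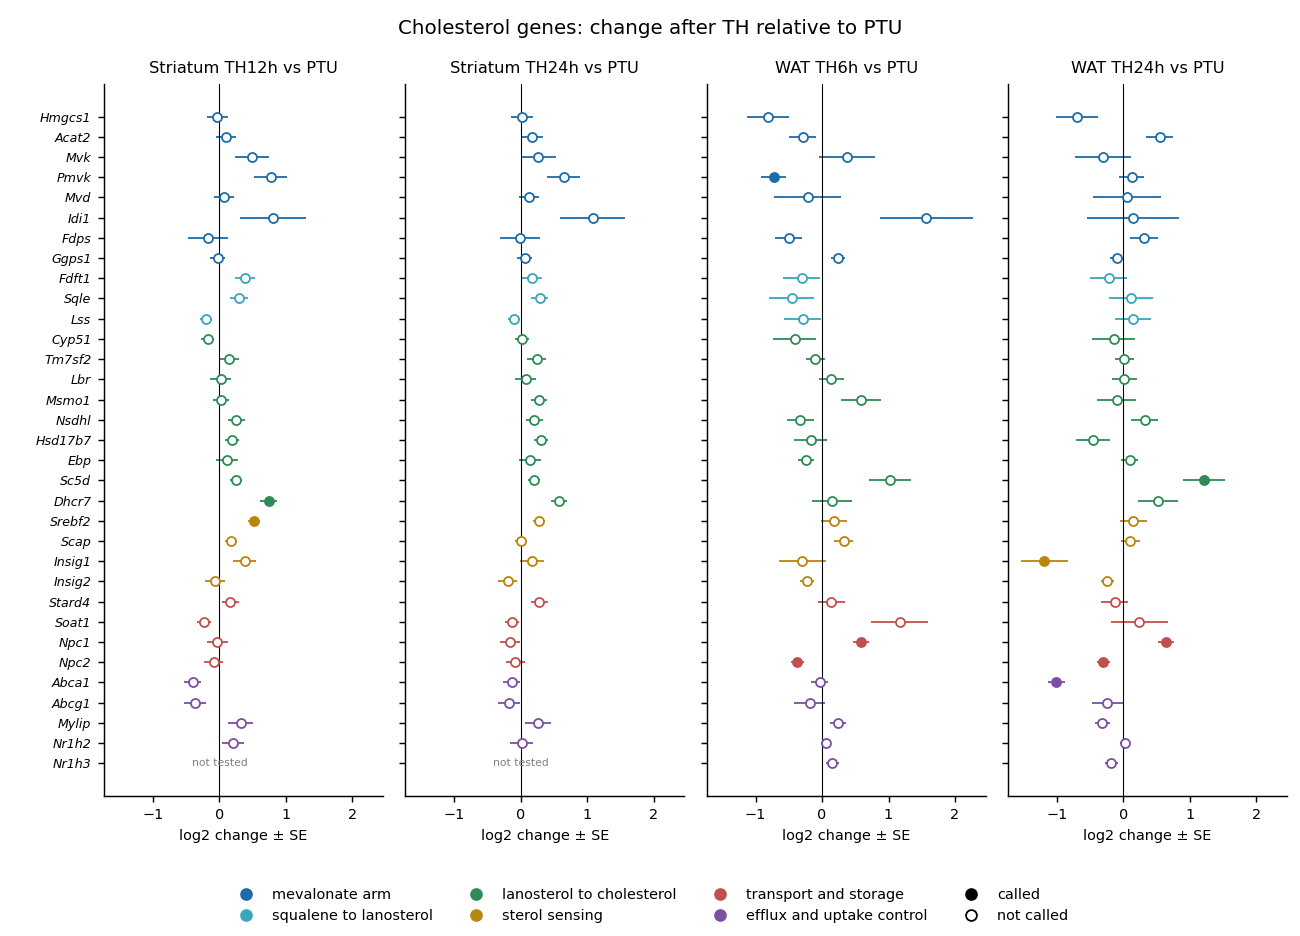
Log2 change against PTU (horizontal axis, edgeR estimate ± SE) of each of the 33 genes (rows, coloured by role) in the striatum at 12 h and 24 h and in WAT at 6 h and 24 h. Filled points were called at adjusted p under 0.05: 2 in the striatum at 12 h, none at 24 h there, then 3 in WAT at 6 h and 5 in that tissue at 24 h, with Sc5d at 1.21 and Insig1 at -1.19 the largest of these 10.

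Of the 8 genes of the mevalonate arm in WAT, 1 was called lower at 6 h, none at 24 h against PTU, and 3 higher between 6 h and 24 h. Pmvk (chr3:89454541-89469013, plus strand), the kinase that makes mevalonate diphosphate, had 1535, 1201, 1143 and 1012 normalised counts in the PTU libraries, 696, 506, 832 and 919.7 at 6 h and 1474, 984, 1381 and 1498 at 24 h. The 6 h libraries were all below the other groups, and the 24 h libraries lay within the PTU range or just beside it. Its log2 change was -0.73 ± 0.19 (SE, n = 4 per group) at 6 h (adjusted p = 0.0392) and 0.85 ± 0.19 from 6 h to 24 h (adjusted p = 0.0206). The call at 6 h was kept only when PTU replicate 3 or 4, TH6h replicate 4 or TH24h replicate 2 was the library left out, and the highest adjusted p otherwise was 0.0925. It was also lost when only the PTU and 6 h groups were fitted (0.064) and with the mean log2 level of the skeletal muscle markers as a covariate (0.0591). The later call was lost without TH6h replicate 1 (0.058), TH24h replicate 1 (0.0557) or TH24h replicate 4 (0.0587).

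Acat2 (chr17:12942890-12960747, minus strand) had 3138, 2255, 2365 and 1752 normalised counts in the PTU libraries, 1580.4, 1575, 2272 and 2332 at 6 h and 3468, 2523, 4133 and 3797 at 24 h. All 24 h libraries were above all 6 h libraries, and the PTU libraries overlapped both. The rise from 6 h to 24 h was 0.84 ± 0.20 on the log2 scale (adjusted p = 0.028), while the log2 change against PTU was -0.29 ± 0.20 at 6 h (adjusted p = 0.382) and at 24 h was 0.55 ± 0.20 (adjusted p = 0.0819). Fdps (chr3:89093588-89101959, minus strand), which makes farnesyl diphosphate, had 1626, 1945, 1639.5 and 1431 normalised counts without TH, 1014, 736, 1527 and 1410.0 at 6 h and 2172, 1528, 2179 and 2368 at 24 h. Its lowest 24 h library was barely above its highest 6 h library, and the change was 0.82 ± 0.21 (adjusted p = 0.0352). For both genes the call was lost without TH6h replicate 1 or 2 or without TH24h replicate 1, 3 or 4, with adjusted p up to 0.0807 for Acat2 and 0.091 for Fdps. From 6 h to 24 h, the muscle covariate gave adjusted p of 0.0977 for Pmvk, 0.0986 for Acat2 and 0.109 for Fdps; the 10 muscle markers had a median log2 change of 2.42 between these times, with 0 called by edgeR, 0 at an unadjusted p under 0.05 and 0 called by DESeq2. Fdps shares 26.7% of its exon length with the predicted gene Gm43738 on the same strand, so its counts are uncertain.

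Circadian genes also differed between the WAT groups. Of 16 clock genes, 8 were called higher and 4 lower at 6 h against PTU, beside 4.18% and 3.05% of all genes. At 24 h against PTU, 1 was called higher and 3 lower, beside 7.45% and 9.62%. Between the times, 5 were called higher and 10 lower, beside 3.07% and 4.35%. The hour of collection is not in the labels. The part of the time of day was not tested for any WAT change, including those of Abca1, Mylip, Npc1, Npc2, Pmvk, Acat2 and Fdps.

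Idi1 (chr13:8885501-8892451, plus strand), the isomerase of isoprenoid units, had the largest estimated change at 6 h and rests on a single library. It had 1156, 1190.0, 1235 and 960.4 normalised counts in the PTU libraries, 1027, 707, 10611 and 1155 at 6 h and 1360.1, 827, 1433 and 1396 at 24 h. TH6h replicate 3 stood far above the other 11 libraries, which overlapped between groups. The log2 change at 6 h was 1.57 ± 0.70 (adjusted p = 0.185) and became -0.24 (adjusted p = 0.502) without that library. From 6 h to 24 h it was -1.43 ± 0.70 (adjusted p = 0.235) with the library and 0.38 (adjusted p = 0.295) without it.

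Mvk, the first kinase of the arm, had 1146 normalised counts in that same library and 408, 451, 368 and 309 in the PTU libraries. TH6h replicate 3 was also the library with the most stratified epithelium markers, and the part of these cells in its Idi1 and Mvk counts was not tested. Hmgcs1 (chr13:119690379-119708260, plus strand) had 3135, 6361, 5958 and 5197 normalised counts in the PTU libraries, 2451, 1737, 5392 and 2208 at 6 h and 2716, 3036, 3850.3 and 3069 at 24 h. The TH libraries overlapped the PTU libraries at both times. Its log2 change was -0.81 ± 0.32 at 6 h, with adjusted p = 0.139, and -0.70 ± 0.32 at 24 h, with adjusted p = 0.146. Without TH6h replicate 3, the highest of the 6 h libraries, Hmgcs1 was called lower at both times, with log2 changes of -1.28 and -0.70 and adjusted p of 0.00934 and 0.0367; none of the 11 other fits that left out a library, nor the 7 other settings, called it. Exons of Idi1 and Hmgcs1 share 9.22% and 12.1% of their length with transcripts on the opposite strand. Mvd and Ggps1, the remaining genes of the arm, had changes from -0.22 to 0.24 against PTU and were not called.

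Between squalene and lanosterol, none of Fdft1, Sqle and Lss was called in WAT, and their changes ran from -0.46 to -0.29 at 6 h and from -0.22 to 0.14 at 24 h. Of the 9 genes that turn lanosterol into cholesterol, 1 was called, Sc5d (chr9:42251595-42264256, minus strand), which puts a double bond into the sterol ring. Sc5d had 2566, 1265, 1333 and 985 normalised counts in the PTU libraries, 2603, 2856, 2954 and 4089.5 at 6 h and 4495, 1958, 3093 and 4692 at 24 h. All 6 h libraries were above all PTU libraries, by a narrow margin over PTU replicate 1, whereas at 24 h replicate 2 fell below PTU replicate 1. The log2 change was 1.02 ± 0.31 at 6 h (adjusted p = 0.0708, not called) and 1.21 ± 0.32 at 24 h (adjusted p = 0.0203). At 24 h the call was lost without PTU replicate 2 (0.0655), TH24h replicate 1 (0.0572) or TH24h replicate 4 (0.0571), and when only the PTU and 24 h groups were fitted (0.0503). The other 8, among them Dhcr7 at 0.52 ± 0.31 (adjusted p = 0.261), did not pass at any time.

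Libraries of one WAT group differed over the synthesis genes as a whole. Among the 20 genes from Hmgcs1 to Dhcr7, PTU replicate 1 was the highest of its group for 12, PTU replicate 4 the lowest for 15, TH6h replicate 2 the lowest for 15 and TH24h replicate 2 the lowest for 16. Summed over the 20 genes, normalised counts ran from 18790 to 25892 in the PTU libraries, from 14821 to 34133 at 6 h and from 17172 to 28542 at 24 h. The groups overlapped in this sum. PTU replicate 4 and TH24h replicate 2 had the most skeletal muscle counts of their groups, 549586 and 307203, and TH6h replicate 2 the fewest of its group, 1026; the part of muscle in the low values was not tested.

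**Figure D2:**
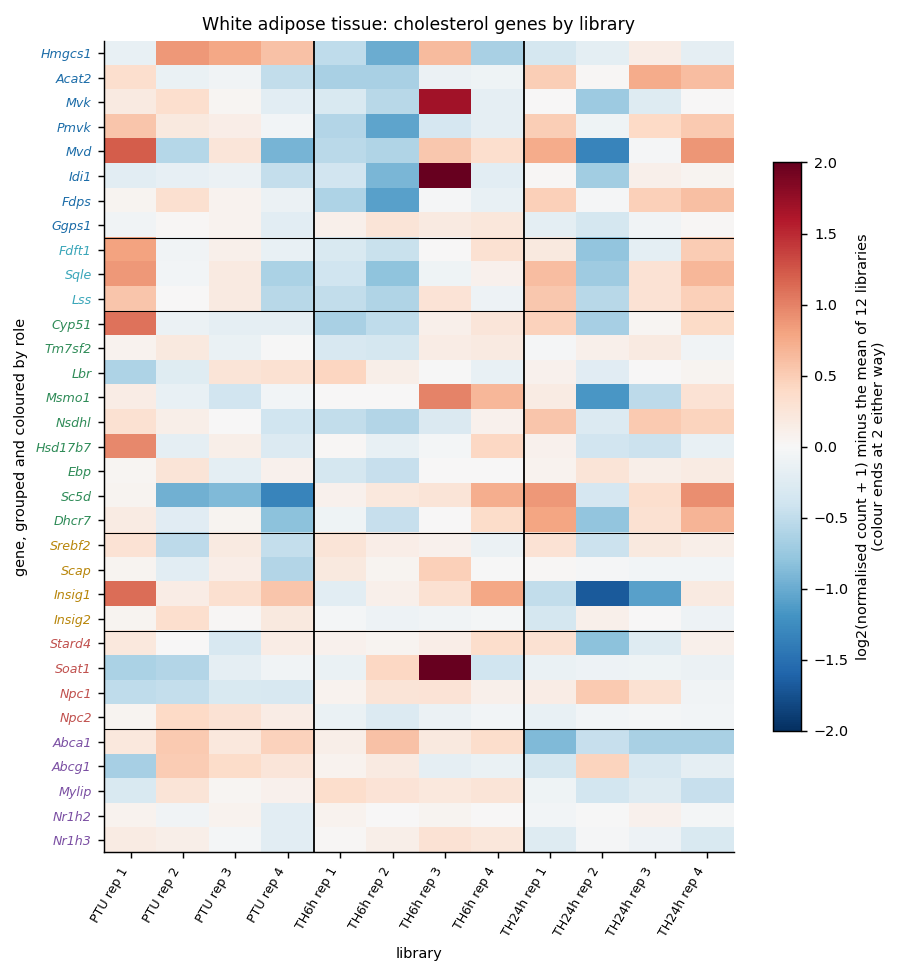
Log2 of normalised count plus 1 minus the mean of the 12 WAT libraries (colour) for the 33 genes (rows, grouped by role) in each library (columns, 4 per group). Abca1 is below its mean in all 4 TH24h libraries, Npc1 is below its mean in all 4 PTU libraries, and TH6h replicate 3 stands out for Idi1, Mvk and Soat1.

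Among the 4 genes of sterol sensing, 1 was called in WAT. Insig1 (chr5:28071363-28078662, plus strand), whose protein holds back SREBP2 and is itself a well known target of it, had 11487, 5902, 6622 and 7826 normalised counts in the PTU libraries, 4577, 5698, 6562 and 9081 at 6 h and 3763, 1669, 2509 and 5996 at 24 h. The 24 h libraries were low, but TH24h replicate 4 was above the lowest PTU library. Its log2 change at 24 h was -1.19 ± 0.35 (adjusted p = 0.0363). The call was lost without PTU replicate 1 (0.0745) or 4 (0.0607), without TH24h replicate 1 (0.0701), 2 (0.0767) or 3 (0.105), and with only the PTU and 24 h groups fitted (0.0678). The related Insig2 had a log2 change of -0.24 ± 0.10 (adjusted p = 0.128), Srebf2 one of 0.15 ± 0.20 (adjusted p = 0.632) and Scap, the escort, one of 0.10 ± 0.15 (adjusted p = 0.658).

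Of the 4 genes of transport and storage in WAT, Npc1 was called higher and Npc2 lower at both times against PTU. Npc1 had 436, 447, 503 and 502 normalised counts in the PTU libraries, 658, 742, 755 and 669 at 6 h and 693, 898, 769 and 593 at 24 h. Every TH library was above every PTU library, and the 6 h and 24 h libraries overlapped. The log2 change was 0.58 ± 0.12 at 6 h, with adjusted p = 0.0124, and 0.65 ± 0.12 at 24 h, with adjusted p = 0.00326. Both calls were kept in all 12 fits that left out a library, with adjusted p up to 0.0417 and 0.0129, and in the 7 other settings. Exons of Npc1 share 4.52% of their length with Rmc1 on the opposite strand, and whether strand was used in counting is not given in the sources used here.

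Npc2 (chr12:84754562-84773152, minus strand) had 6676, 8410.2, 7848 and 7089 normalised counts in the PTU libraries, 5824, 5303, 5896 and 6138 at 6 h and 5768, 6152, 6248 and 6194 at 24 h. Every TH library was below every PTU library, although the step was small. The log2 change was -0.37 ± 0.096 at 6 h, with adjusted p = 0.036, and -0.30 ± 0.096 at 24 h, with adjusted p = 0.0491. At 6 h the call was kept only when PTU replicate 1 or 4 or TH24h replicate 2 was left out, and at 24 h only for PTU replicate 1 or 4, with adjusted p up to 0.0974 and 0.141 for the others. Without the filter on low counts the adjusted p was 0.105 at 6 h and 0.163 at 24 h, with only the compared groups fitted 0.107 and 0.114, and with the muscle covariate 0.0878 at 24 h.

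Soat1 (chr1:156424525-156474331, minus strand) had 166, 171, 229 and 246 normalised counts in the PTU libraries, 235, 345, 1059 and 195 at 6 h and 235, 241, 243 and 239 at 24 h. The high 6 h value again came from replicate 3. Its log2 change at 6 h was 1.17 ± 0.43 (adjusted p = 0.117) and was 0.35 (adjusted p = 0.299) without that library. From 6 h to 24 h it was -0.93 ± 0.43 (adjusted p = 0.202), or -0.11 (adjusted p = 0.784) without it. Stard4, which carries sterol through the cytosol, was not called.

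Efflux and uptake control held the decrease with the smallest adjusted p of the 33 genes. Abca1 (chr4:53030787-53159895, minus strand) had 2765, 3443, 2761 and 3281 normalised counts in the PTU libraries, 2577, 3569, 2731 and 3064 at 6 h and 1297, 1738, 1519.8 and 1517 at 24 h. The highest 24 h library was well below the lowest library of either other group, while the 6 h and PTU libraries overlapped. The mean at 6 h was 2985 ± 439. The log2 change was -0.036 ± 0.13 at 6 h (adjusted p = 0.881), -1.01 ± 0.13 at 24 h against PTU (adjusted p = 0.000276) and -0.98 ± 0.13 from 6 h to 24 h (adjusted p = 0.00115). Both 24 h calls were kept in all 12 fits that left out a library, with adjusted p up to 0.00179 and 0.00569, and in the 7 other settings.

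Markers of adipocytes were also lower at 24 h. Of 8 adipocyte markers 5 were called lower at 24 h against PTU, beside 9.62% of all genes, with a median log2 change of -0.64. Their summed level ran from 418908 to 527842 normalised counts in the PTU libraries and from 264049 to 368305 at 24 h. At 6 h, where Abca1 was near its PTU level, the sum ran from 356522 to 424780. The median log2 change of the markers was then -0.24, with 2 of 8 above 0. At 6 h edgeR called 0 of them, 1 had an unadjusted p under 0.05 and DESeq2 called 1. No marker of the list was at 0. Of 8 macrophage markers 0 were called at 24 h by edgeR, with a median of -0.047. There 0 had an unadjusted p under 0.05 and DESeq2 called 0. At 6 h against PTU 0 of the 8 had a positive estimate, with a median of -0.48. At that time edgeR called 0, and 4 had an unadjusted p under 0.05, beside 4557 of all 17928 genes. DESeq2 called 1 of the 8, beside 2145 of all genes. From 6 h to 24 h all 8 were positive, with a median of 0.43. Of these edgeR called 0, and 2 had an unadjusted p under 0.05, beside 4328 of all 17928 genes. DESeq2 called 1, beside 2169 of all genes. The part of macrophages in the changes of Npc1 and Npc2 was not tested. The part of the adipocyte change in that of Abca1 was not tested.

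Markers of brown adipocytes moved the other way. Of 6 such markers 2 were called higher at 6 h, beside 4.18% of all genes, and 4 at 24 h against PTU, beside 7.45%. Their median log2 changes were 0.79 and 1.67. Their summed level ran from 1654.5 to 3023 normalised counts in the PTU libraries, from 4558 to 9247 at 6 h and from 7364 to 21738 at 24 h, and no marker was at 0. Every TH library was above every PTU library in this sum, as for Npc1, and the part of this change in those of Npc1, Npc2, Sc5d, Insig1 and Abca1 was not tested.

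Mylip (chr13:45389742-45412022, plus strand) had 778, 1150.5, 993 and 1026 normalised counts in the PTU libraries, 1226, 1166, 1116 and 1155 at 6 h and 912, 749.7, 808 and 703 at 24 h. The 24 h libraries were all below the 6 h libraries, and PTU replicate 1 lay among them. It fell by 0.56 ± 0.12 on the log2 scale from 6 h to 24 h (adjusted p = 0.0153), a call kept in all 12 fits that left out a library but not with the muscle covariate (0.0947). Its log2 change against PTU was -0.31 ± 0.12 at 24 h (adjusted p = 0.0807). Abcg1, the second exporter, had 449, 1003, 916 and 841 normalised counts in the PTU libraries and 556, 959, 568 and 626 at 24 h. The groups overlapped and the change was -0.24 ± 0.23 (adjusted p = 0.5). The liver X receptor genes Nr1h2 and Nr1h3 had log2 changes of 0.028 ± 0.077 (adjusted p = 0.828) and -0.18 ± 0.10 (adjusted p = 0.235) at 24 h.

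**Figure D3:**
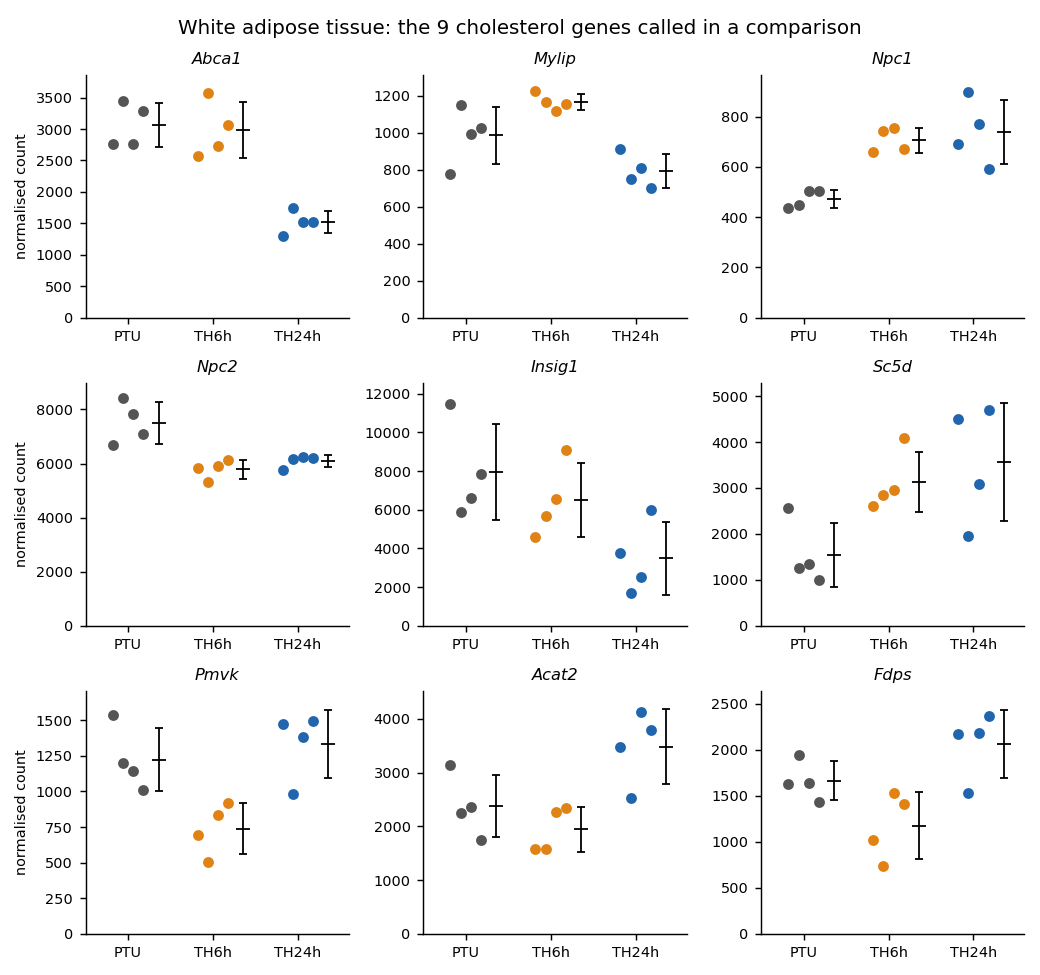
Normalised count (vertical axis, from 0) in each of the 12 WAT libraries, as points in replicate order, for the 9 genes called in a WAT comparison, with the mean ± SD (n = 4) of each group beside them. Abca1 lies between 1297 and 1738 at 24 h and at or above 2577 elsewhere, Npc1 is at most 503 in PTU and at least 593 after TH, and Insig1 and Sc5d overlap between PTU and 24 h.

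Other genes of sterol handling in WAT were taken from a list of 34, of which 31 were tested. At 6 h, 2 were called higher and 2 lower, beside the 4.18% and 3.05% of all genes: Gramd1a, which moves cholesterol from the plasma membrane to the endoplasmic reticulum (0.52 ± 0.11, adjusted p = 0.0179), Scarb1, the receptor for high density lipoprotein (0.44 ± 0.11, 0.037), Tspo of the outer mitochondrial membrane (-0.43 ± 0.12, 0.0439) and the oxysterol hydroxylase Cyp39a1 (-0.66 ± 0.19, 0.0499). At 24 h, 2 were called higher and 4 lower, beside 7.45% and 9.62%, so the counts were near the background. Among those called were Tspo (-0.61 ± 0.12, 0.00401), Lcat, which esterifies cholesterol on lipoproteins (1.46 ± 0.29, 0.00537), Cyp27a1, which makes an oxysterol that activates liver X receptors (0.55 ± 0.12, 0.0067), and Erlin2 of the endoplasmic reticulum membrane (-0.35 ± 0.088, 0.0172). Cyp27a1 rose from 491 ± 58.4 normalised counts in PTU to 721 ± 105 at 24 h (SD, n = 4 each), while Lcat was low, at 12.5 ± 4.05 and 34.1 ± 8.47. Between the times 1 was called higher, beside 3.07%, Cyp27a1 (0.63 ± 0.12, 0.0084).

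Of Abca1, Abcg1 and Mylip, which liver X receptors raise, only Abca1 was called in WAT at 24 h against PTU. Beside them, 6 further genes that liver X receptors are known to raise were counted. Of these, 3 were called lower in WAT at 24 h against PTU, beside 9.62% of all genes, and none higher, beside 7.45%: Lpl, the lipase that frees fatty acids from lipoproteins (-0.78 ± 0.14, adjusted p = 0.00284), Lpcat3, which remodels phospholipids (-0.46 ± 0.10, 0.00826), and Smpdl3a (-0.35 ± 0.094, 0.0252). The other 3 were not called at 24 h, and 1 of the 6 had a positive estimate. At 6 h 1 was called lower, beside 3.05%, Lpcat3 (-0.44 ± 0.10, 0.0228). Lpl is a gene of adipocytes, whose markers were lower at 24 h, and the part of that change in the fall of Lpl was not tested.

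In the striatum 2 of the 32 genes were called higher at 12 h, beside 0.733% of all genes, and 0 lower, beside 0.227%. These shares rest on 152 genes called at 12 h, which became 0 without PTU replicate 3, 1 without PTU replicate 6, 14 and 6 without TH12h replicate 2 or 3, and 1257 without TH24h replicate 2. The pair were Dhcr7, which carries out the last step of one branch of cholesterol synthesis, and Srebf2. At 24 h 0 of 32 were called, beside 0.348% of all genes in either direction. There 6 had an unadjusted p under 0.05, beside 1524 of all 15827 genes. DESeq2 called 1, Dhcr7, beside 203 of all genes. Between 24 h and 12 h 0 were called, beside 0%. Here 5 had an unadjusted p under 0.05, beside 2309 of all 15827 genes, so this count was near the background. DESeq2 called 1, Srebf2, beside 240 of all genes. The median log2 change of the 32 was 0.13 at 12 h with 21 above 0, and 0.15 at 24 h with 24 above 0. Over all genes the medians were 0.0076 and 0.016, and 51.03% and 53.12% of genes were above 0. The striatum comparisons share their PTU libraries, of which there were 2.

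Dhcr7 (chr7:143823145-143848410, plus strand) had 472 and 594 normalised counts in the PTU libraries, 947, 921, 901 and 789 at 12 h and 726, 833, 770.3 and 838 at 24 h. Every TH library was above both PTU libraries, and the 12 h and 24 h libraries overlapped. The log2 change was 0.74 ± 0.12 (SE, n = 4 against 2) at 12 h, with adjusted p = 0.0248, and 0.57 ± 0.12 at 24 h, with adjusted p = 0.0944. The call at 12 h was lost without PTU replicate 3 (0.307) or 6 (0.13), where the single PTU library left is assumed to vary like the other groups, and without TH12h replicate 2 (0.0873) or 3 (0.0712). With a covariate for Xist or Y-linked libraries it was kept (0.80 on the log2 scale, adjusted p = 0.0334).

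Srebf2 (chr15:82147181-82205379, plus strand), which encodes the transcription factor that switches on the whole route, had 1202 and 1262 normalised counts in the PTU libraries, 1684, 1862, 1827 and 1730.3 at 12 h and 1399.8, 1529, 1555 and 1466 at 24 h. The 3 groups did not overlap: PTU was lowest, 24 h intermediate and 12 h highest. Its log2 change was 0.53 ± 0.09 at 12 h (adjusted p = 0.0276), 0.27 ± 0.089 at 24 h (adjusted p = 0.347) and -0.26 ± 0.072 from 12 h to 24 h (adjusted p = 0.168). Without PTU replicate 3 (0.307) or 6 (0.194), TH12h replicate 2 (0.0963), 3 (0.0833) or 4 (0.0573), or with the library type covariate (0.0586), the call at 12 h was lost.

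Levels of cortical neuron markers were also higher at 12 h in sum, without a call for any single one. All 8 such markers had a positive log2 change at 12 h, with a median of 0.89, and all 10 markers of striatal projection neurons a negative one, with a median of -0.83. Of these 0 were called by edgeR in either list. At an unadjusted p under 0.05 were 3 cortical markers and 1 striatal marker, beside 3197 of all 15827 genes. DESeq2 called 1 and 0, beside 817 of all genes. The 8 oligodendrocyte markers had a median of -0.41 at 12 h, with 0 called by edgeR, 1 at an unadjusted p under 0.05 and 0 called by DESeq2. At 24 h against PTU all 8 cortical markers again had a positive change, with a median of 1.08. Of the 10 striatal markers 2 were positive, with a median of -0.34. In both lists edgeR called 0 at 24 h. At an unadjusted p under 0.05 were 2 cortical and 0 striatal markers, beside 1524 of all 15827 genes, and DESeq2 called 1 and 0. Of 16 clock genes in the striatum, edgeR called 1 higher at 12 h, beside 0.733% of all genes. There 5 had an unadjusted p under 0.05, beside 3197 of all 15827 genes, and DESeq2 called 2. The parts of tissue composition and of time of day in the striatum changes at 12 h and 24 h, including those of Dhcr7 and Srebf2, were not tested.

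**Figure D4:**
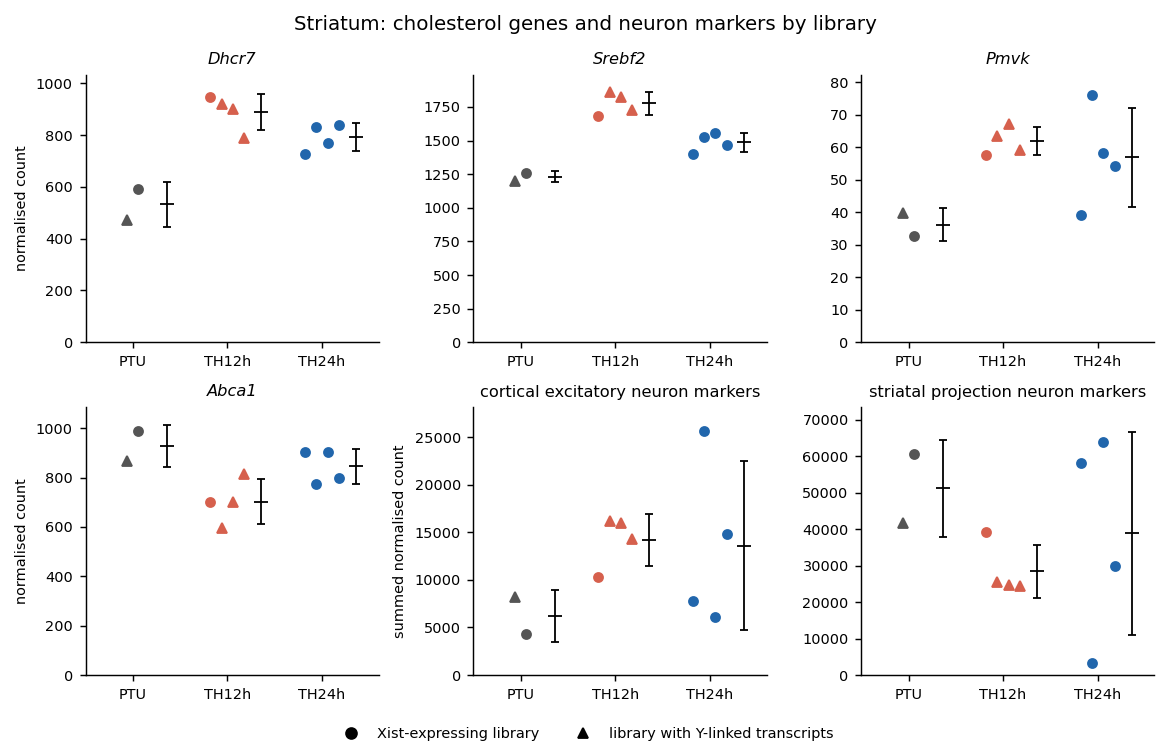
Normalised count (vertical axes, from 0) in each of the 10 striatum libraries for Dhcr7, Srebf2, Pmvk and Abca1, and summed normalised count of cortical and striatal neuron markers, with mean ± SD of each group (n = 2 for PTU, 4 for the others). Circles are libraries with abundant Xist and triangles those with Y-linked transcripts; Dhcr7 and Srebf2 are lowest in both PTU libraries, and cortical markers are higher in all TH12h libraries than in PTU.

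Within the mevalonate arm of the striatum none of 8 genes was called. Pmvk had 39.8 and 32.6 normalised counts in the PTU libraries, 57.6, 63.6, 67.1 and 59.2 at 12 h and 39.1, 76.2, 58.3 and 54.2 at 24 h. At 12 h all libraries were above PTU, and at 24 h replicate 1 was not. The log2 change was 0.77 ± 0.24 at 12 h, with adjusted p = 0.121, and 0.65 ± 0.25 at 24 h, with adjusted p = 0.427. Idi1 had the largest estimates, 0.81 ± 0.49 at 12 h (adjusted p = 0.383), 1.08 ± 0.49 at 24 h (adjusted p = 0.512) and 0.28 ± 0.35 between them (adjusted p = 0.77), but rested on 4 to 15 raw counts per library. In normalised counts it had 6.29 and 5.94 in the PTU libraries, 13.2, 12.7, 3.63 and 13.7 at 12 h and 13.7, 11.2, 14.3 and 13 at 24 h. Only TH12h replicate 3 was below the PTU libraries.

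In the striatum Hmgcs1, the most abundant of the genes per length, had estimates of -0.031 ± 0.16 (adjusted p = 0.936) and 0.017 ± 0.16 (adjusted p = 0.983). The 3 genes from squalene to lanosterol ran from -0.20 to 0.39 at 12 h and the 9 from lanosterol to cholesterol from -0.18 to 0.74. At 24 h all 9 of the latter had a positive estimate, beside 53.12% of all genes, with a median of 0.20, and none was called. TH24h replicate 2, the library rich in cortical markers, was the highest of its group for 12 of the 20 synthesis genes; without it the median change of the 32 genes at 24 h was 0.077. Among the genes of transport, Npc1 and Npc2 had log2 changes of -0.16 ± 0.15 (adjusted p = 0.778) and -0.08 ± 0.14 (adjusted p = 0.892) at 24 h.

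Abca1 in the striatum had 868 and 987 normalised counts in the PTU libraries, 701, 595, 701 and 815 at 12 h and 905, 774, 905 and 797 at 24 h. The 12 h libraries were all below PTU, and the 24 h libraries overlapped both. Its log2 change was -0.40 ± 0.13 at 12 h (adjusted p = 0.121), -0.13 ± 0.13 at 24 h (adjusted p = 0.774) and 0.27 ± 0.10 between the times (adjusted p = 0.281). Of the other genes of sterol handling, 0 of 31 tested were called by edgeR in the striatum at 12 h or 24 h against PTU. Of these 31, 7 and 5 had an unadjusted p under 0.05, beside 3197 and 1524 of all 15827 genes. DESeq2 called 2 and 1, beside 817 and 203 of all genes. Of the 6 further liver X receptor targets 0 were called by edgeR or DESeq2 at either time, with 2 and 0 at an unadjusted p under 0.05.

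The change at 24 h was compared between the tissues as an interaction in a single fit of all 22 libraries over 13086 genes. Of the 32 genes tested 1 was called higher in WAT relative to the striatum, beside 1.86% of all genes, and 1 lower, beside 3.47%. Abca1 differed by -0.86 ± 0.19 (adjusted p = 0.0113), with a fall in WAT and an estimate near 0 in the striatum. Npc1 differed by 0.82 ± 0.20 (adjusted p = 0.0185), with a rise in WAT and an estimate a little below 0 in the striatum. Without striatum PTU replicate 3 the adjusted p was 0.103 for Abca1 and 0.0525 for Npc1, and without striatum PTU replicate 6 it was 0.138 for Npc1. Npc1 did not pass with only the PTU and 24 h groups fitted (0.068) or with a replicate block (0.206). Abca1 passed in all 8 settings other than leaving out a single library. The largest estimates otherwise were those of Insig1 at -1.35 ± 0.49 (adjusted p = 0.121), Sc5d at 1.02 ± 0.39 (adjusted p = 0.142) and Idi1 at -0.93 ± 1.70 (adjusted p = 0.808), none of which passed. The tissues also differed in RNA extraction kit, which cannot be told apart from the tissue. Library type was read in the striatum only, and every WAT library carried the same value of that covariate.

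**Figure D5:**
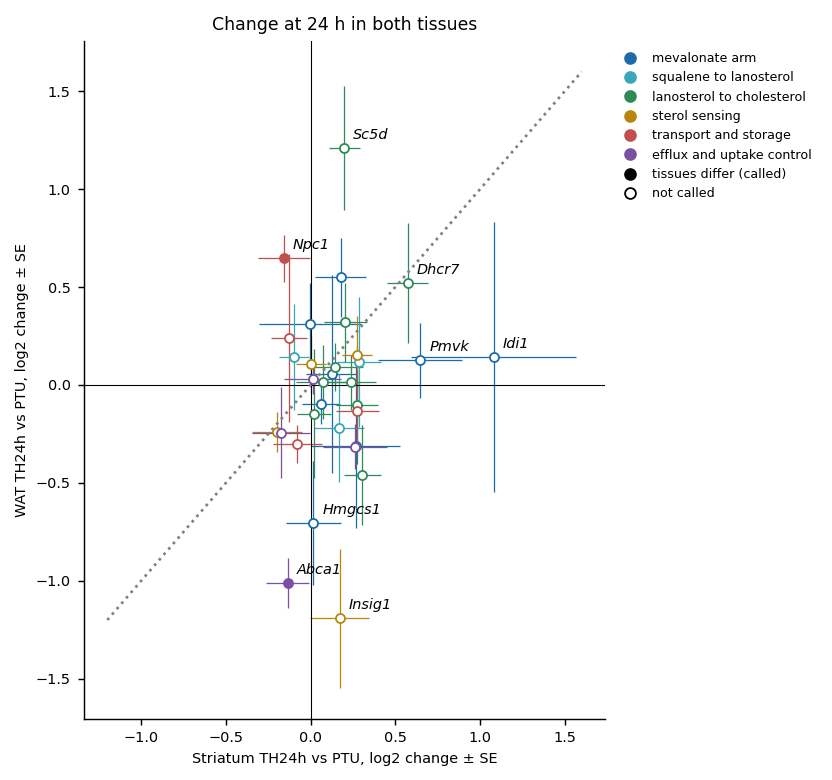
Log2 change at 24 h against PTU in the striatum (horizontal axis) and in WAT (vertical axis), each ± SE from the fit of its own tissue, for the 32 genes tested in both; the dotted line marks equal change. Filled points are Abca1 and Npc1, the 2 genes that passed the interaction test with all libraries fitted, which lie near 0 in the striatum and at -1.01 and 0.65 in WAT.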

How the data were processed

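The deposited values are raw counts of reads per gene, one table per tissue, made by the authors from single libraries. Per the submitters' processing notes, Bowtie2 (2.2.6.2), the genome build mm10 and DESeq2 were used; the strand setting of the counting is not given in the sources used here. From these counts, rows whose gene name had turned into a date (14 in the striatum, 15 in WAT) were removed. Tests covered genes whose mean normalised count passed 10, with edgeR 4.0.16 (quasi-likelihood F test, two-sided, TMM factors, R 4.3.3), all groups of a tissue in one fit, with adjustment over all genes tested; DESeq2 1.42.0, another scaling, no filter, fewer groups, covariates, a replicate block and each library left out were alternatives. The fit was also run on simulated counts. These held no differences between libraries in tissue composition or library type, so that run does not bear on such differences. Nothing in the labels says that libraries came from separate animals, so p-values measure the spread between libraries, which may be technical. Positions and exon lengths are from GENCODE vM21 (GRCm38). The members, the further gene lists and the rule for named genes (members called in a comparison or among its 3 largest changes, and called genes of the other lists, at most 4 per comparison) were chosen with earlier results of these data known. Some genes that this rule selects are not reported here. Sequences are from RefSeq.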

Additional observations from a re-analysis of the deposited data

Results flagged for a closer look

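In 6 of the 163 combinations of gene and group of 4 libraries a library lay far from the other 3, by a rule that chance meets in about 1 of 20 groups. In WAT TH6h replicate 3, Idi1 had 10611 normalised counts against at most 1155 in the other 3 libraries, and Mvk had 1146 against at most 316. Cyp51, the lanosterol demethylase, had 2116 in WAT PTU replicate 1 against at most 922. Idi1 had 827 in WAT TH24h replicate 2 against at least 1360 in the others. In the striatum, Fdft1 had 308 in TH24h replicate 2 against at most 233, and Idi1 had 3.63 in TH12h replicate 3 against at least 12.7.

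The change at 24 h differed between the tissues for 2 genes by the interaction test. For Abca1 the change in WAT minus that in the striatum was -0.86 on the log2 scale, and for Npc1 it was 0.82. By edgeR the Npc1 difference did not pass with only the PTU and 24 h groups fitted (adjusted p = 0.068) or with a replicate block (0.206). It also did not pass without either striatum PTU library, and that of Abca1 did not pass without striatum PTU replicate 3.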

How the results depend on the processing

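No change that was called, with all libraries or under an alternative, had the opposite sign in another fit. Changes that were never called did, among them that of Idi1 in WAT, which went from 1.57 to -0.24 at 6 h and from -1.43 to 0.38 between the times without TH6h replicate 3. With edgeR, 2 genes were called in the striatum at 12 h; the count was 1 with a covariate for library type and 0 with a replicate block. DESeq2 called 1 in the striatum at 24 h and 1 between 24 h and 12 h, where edgeR called 0 and 0. For WAT it called 5 at 6 h and 8 between 24 h and 6 h, where edgeR called 3 and 5. With only the groups compared in the fit, 1 gene was called in WAT at 6 h, 2 at 24 h (5 with all groups) and 1 for the interaction (2 with all libraries). The muscle covariate left 1 of 5 between 24 h and 6 h, Abca1, and the replicate block left 1 of 2 for the interaction, Abca1, with Npc1 at an adjusted p of 0.206. The causes were not tested. Leaving out each library in turn gave 0 to 3 called genes in the striatum at 12 h, 0 at 24 h and 0 between the times, 1 to 4 in WAT at 6 h, 2 to 6 at 24 h, 2 to 7 between the times and 0 to 3 for the interaction. Median changes over the members ran from 0.10 to 0.22, 0.077 to 0.19, -0.038 to 0.049, -0.18 to 0.023, -0.067 to 0.061, -0.044 to 0.098 and -0.22 to -0.079 in the same order, so the WAT medians and that between the striatum times crossed 0. Replicate numbers were not found to pair the libraries: correlations of same-numbered deviations ran from -0.39 to 0.26 over 6 striatum pairs and from -0.47 to 0.38 over 12 WAT pairs. With the block the calls of Dhcr7 and Srebf2 at 12 h were lost. In the striatum no other library shares the number of PTU replicate 6, so the block fits that library by itself. Changes against PTU then rest on PTU replicate 3 alone, also in the interaction. Number 3 joins libraries with Y-linked transcripts at PTU and 12 h to a library with abundant Xist at 24 h. The striatum block therefore cannot decide whether libraries are paired. In WAT the block gave Npc2 adjusted p of 0.0798 at 6 h and 0.0955 at 24 h and Fdps 0.0526 between the times. Over all genes, the striatum calls of 152 at 12 h, 55 at 24 h and 0 between the times became 817, 203 and 240 with DESeq2, 308, 104 and 41 without the filter, 1442, 0 and 0 with only the groups compared, 0, 0 and 7 with the block, and 60, 3 and 0 with library type. The WAT calls of 1296, 3060 and 1329 became 2145, 3760 and 2169 with DESeq2, 834, 2037 and 2444 with only the groups compared, 886, 2312 and 778 with the block, and 1223, 2660 and 462 with the muscle covariate. The 697 interaction calls became 458 without the filter, 254 with only the groups compared, 81 with the block and 443 with library type. Leaving out each library gave 0 to 1257, 0 to 115 and 0 to 78 striatum calls, 684 to 1898, 1957 to 4264 and 661 to 2038 WAT calls, and 216 to 1088 interaction calls. With 2 PTU striatum libraries, counts as low as those of Idi1 allow no firm statement there.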
